A study of Mus musculus with 4 samples.

Results

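The hormone genes of the pancreatic islet Ins1, Ins2, Iapp, Gcg, Sst, Ppy and Pyy were followed through single-cell RNA sequencing of cytokine-treated mouse islets. These 7 genes, of 31053 in the count tables, were taken by symbol, with earlier results of these data known, and all 7 were found in the tables once. Islets of several adult male C57BL/6 mice (C57BL6/J in the study's methods) were isolated, pooled and divided over 4 cultures. One culture received no cytokine, and the others received interleukin-1β (IL-1β, IL-1B in the labels), interferon-γ (IFN-γ, IFNg in the labels) or both for 6 h. Each culture gave 1 droplet library on the 10x Genomics platform, in which each captured transcript is counted once through its unique molecular identifier (UMI). With 1 library per condition no difference between conditions can be tested, and treatment cannot be told apart from culture, dissociation or library.

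The libraries held 3486 (untreated), 2911 (IL-1β), 3694 (IFN-γ) and 2480 (both) cell barcodes, with 50731370, 20056630, 31209339 and 25716645 UMIs. A cell was kept when it had 200 to 4000 genes and no more than 12% of its UMIs were mitochondrial, which left 1521, 2018, 2122 and 1810 cells, 7471 of 12571 in all. The upper limit weighed unequally on the libraries, since 851 untreated cells had over 4000 genes, against 147, 350 and 222. The untreated library was also the deepest, with a median of 15454 UMIs per kept cell against 7463, 9615 and 11124. Only 16 barcodes occurred in more than 1 library, and 18 kept cells carried one of them.

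Islet hormones are made as larger precursors, cut by prohormone convertases and stored in granules. β-cells make insulin, in the mouse from Ins1 and Ins2, together with islet amyloid polypeptide (Iapp), and α-cells make glucagon (Gcg). δ-cells make somatostatin (Sst), which restrains the release of both insulin and glucagon, and PP-cells make pancreatic polypeptide (Ppy), a close relative of peptide YY (Pyy). Insulin transcription rests on factors such as Pdx1, Mafa and Neurod1, and loss of β-cell function under IL-1β and IFN-γ is a long-used model of islet inflammation.

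Cells were sorted into classes by clustering without the 7 hormones, and the clusters were named from other marker genes, by a scheme that was settled with the hormone shares of the clusters in view. β-like cells numbered 1111, 1174, 1332 and 1308 in the order untreated, IL-1β, IFN-γ and both, α-like cells 89, 305, 326 and 174, and δ-like cells 74, 160, 191 and 119. By the settings used here a PP-like cluster, of 42 cells, was named in the library with both cytokines and in no other. In the other libraries 4 clusters rich in Ppy (25, 63, 35 and 58 cells) stayed unnamed, because neither their PP nor their α marker score led the other by enough. Other settings named PP-like cells in the untreated and IFN-γ libraries too, such as 28 and 18 cells at a clustering resolution of 1.6, and 24 and 54 with clusters made over all libraries. The latter setting left 5 PP-like cells in the library with both cytokines. No clustering setting named any in the IL-1β library. Non-endocrine cells (endothelial-like, macrophage-like, mesenchymal-like, ductal-like, acinar-like or mixed clusters) numbered 115, 141, 156 and 93. The mixed cluster of the IFN-γ library, of 28 cells, held markers of mesenchymal and Schwann cells. A further 561 cells in 13 of 79 clusters stayed unnamed. The β markers themselves differed between libraries. Slc2a2, the glucose transporter of rodent β-cells, was seen in 72.9%, 9.28%, 45.8% and 10.4% of β-like cells, and G6pc2, an islet glucose-6-phosphatase, in 92.6%, 82.4%, 85.4% and 68.3%, while its level was 295, 567, 369 and 180 CPM (counts scaled to the class total).

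Both insulin genes share most of their coding sequence, which bears on how their reads can be told apart. Ins1 (ENSMUSG00000035804, chr19:52264297-52265476, mm10, plus strand) has 1 coding exon of 2 exons in Ins1-201, and Ins2 (Ins2-201, chr7:142678659-142679726, minus strand) has 2 coding exons of 3. Of 330 aligned coding columns 300 were identical, 24 differed and 6 held a gap, which is 92.6% identity where both had a base. The stretch below, coding bases 8 to 97 of both transcripts rebuilt from GENCODE M21, is shown because it holds 13 of those differences, here in capitals.
Ins1: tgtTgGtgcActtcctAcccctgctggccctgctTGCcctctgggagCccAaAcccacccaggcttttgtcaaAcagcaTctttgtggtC
Ins2: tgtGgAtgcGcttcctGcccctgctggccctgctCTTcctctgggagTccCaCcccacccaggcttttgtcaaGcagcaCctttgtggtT
The longest run shared by the 2 transcripts was 56 bases, and the treatment of reads within shared runs in the authors' counting is not stated in the sources used here. The other genes were annotated in GENCODE M21 as Iapp at chr6:142298423-142303961, Gcg at chr2:62474530-62483650, Sst at chr16:23889573-23890958, Ppy at chr11:102099930-102101319 and Pyy at chr11:102106676-102107832. Iapp alone overlaps another gene, Slco1a5, on the opposite strand.

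The promoters of 4 members are shown because their genes led the 3 main classes and because Ins1 and Iapp are made in the same cells. Each line gives the 250 bases before the RefSeq start (GRCm38.p6), 5′ to 3′ on the gene's strand. Capitals mark CATCTG, the E box letters that Neurod1 dimers can bind, TAAT, the core letters of homeodomain factors such as Pdx1, or TGACGTCA, the cyclic AMP response element, each searched on both strands, so that CAGATG and ATTA are matches read from the other strand. In Iapp 1 pair of TAAT matches overlaps, as ATTAAT.
Ins1, chr19:52264047-52264296, plus strand: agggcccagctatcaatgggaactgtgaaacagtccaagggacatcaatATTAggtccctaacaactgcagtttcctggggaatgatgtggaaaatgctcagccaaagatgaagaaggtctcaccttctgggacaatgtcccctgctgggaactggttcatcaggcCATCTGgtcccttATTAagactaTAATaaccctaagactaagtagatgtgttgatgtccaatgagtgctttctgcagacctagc
Iapp, chr6:142298175-142298424, plus strand: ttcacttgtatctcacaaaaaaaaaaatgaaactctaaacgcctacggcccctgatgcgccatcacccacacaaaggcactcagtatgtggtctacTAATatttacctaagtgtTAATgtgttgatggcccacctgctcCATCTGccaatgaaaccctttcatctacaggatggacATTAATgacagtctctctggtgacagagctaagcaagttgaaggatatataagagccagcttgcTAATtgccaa
Gcg, chr2:62483654-62483903, minus strand: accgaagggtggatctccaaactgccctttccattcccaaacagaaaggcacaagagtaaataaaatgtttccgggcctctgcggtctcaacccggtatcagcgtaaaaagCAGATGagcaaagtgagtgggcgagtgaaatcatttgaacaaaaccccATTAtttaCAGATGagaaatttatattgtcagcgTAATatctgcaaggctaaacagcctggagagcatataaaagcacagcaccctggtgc
Sst, chr16:23890845-23891094, minus strand: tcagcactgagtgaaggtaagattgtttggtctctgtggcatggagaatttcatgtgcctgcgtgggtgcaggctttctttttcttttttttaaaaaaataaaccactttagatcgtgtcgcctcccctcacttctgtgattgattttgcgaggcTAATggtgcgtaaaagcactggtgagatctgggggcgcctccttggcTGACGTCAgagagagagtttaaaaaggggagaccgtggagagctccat
CATCTG was present once in Ins1, at position -84 from the start, once in Iapp, at -111, and 2 times in Gcg, the first at -139. TGACGTCA was present only in Sst among the 6 members with a promoter entry, at -48. Of 32851 promoters of the same length 14.4% held CATCTG, 54.9% TAAT and 1.55% TGACGTCA. Ppy and Pyy held none of the 3. Ins2 had no promoter entry.

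In untreated β-like cells the insulin genes took up much of the transcriptome, and their share was lower in every treated library. Summed Ins1 UMIs made up 12.6% of all UMIs in the untreated library, 6.04% under IL-1β, 8.32% under IFN-γ and 8.40% under both cytokines. Ins2 made up 29.6%, 15.7%, 19.6% and 24.9%. Both together came to 42.18% (95% Poisson interval 42.16 to 42.21), 21.73% (21.70 to 21.76), 27.88% (27.86 to 27.91) and 33.34% (33.31 to 33.37), so IL-1β alone had the lowest share and the combination lay nearest to the untreated library. These intervals, like all below, cover counting error only and say nothing of the spread between cultures. The ratio to the untreated library was 0.515 (0.514 to 0.516) under IL-1β, 0.661 (0.660 to 0.662) under IFN-γ and 0.790 (0.789 to 0.791) under both.

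**Figure D1:**
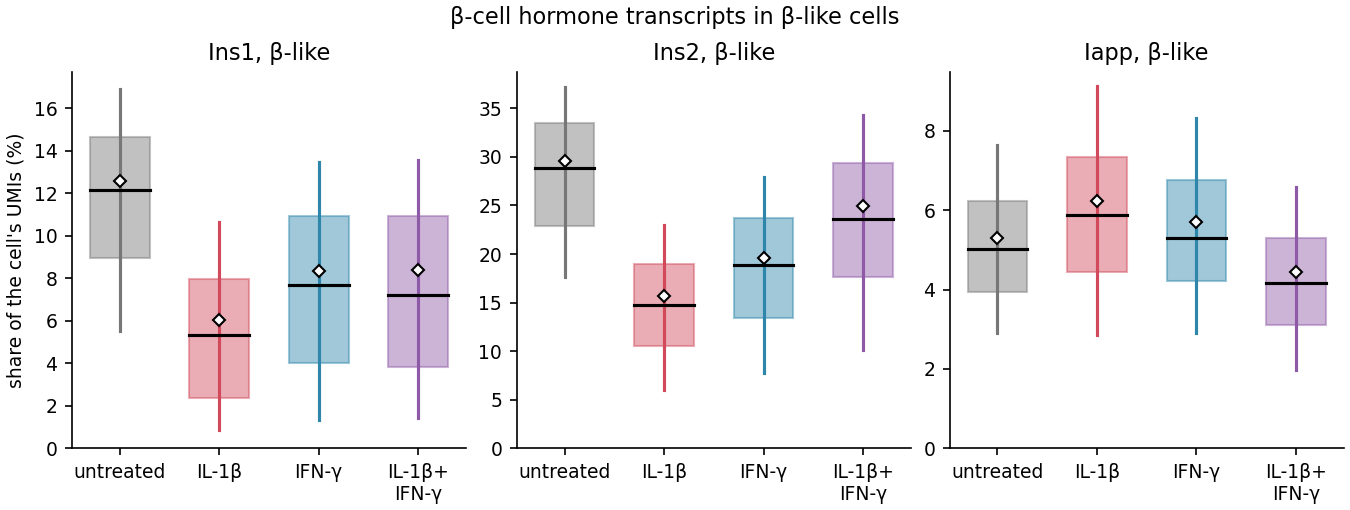
Share of each β-like cell's UMIs (%) taken by Ins1, Ins2 and Iapp in the 4 libraries. Boxes span the quartiles over cells, vertical lines the 10th to 90th percentile, black bars the median, and white diamonds the share of summed UMIs. For Ins1 and Ins2 the untreated median lies above the box of the IL-1β library, while the Iapp boxes overlap.

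The lower share was seen across most β-like cells of each treated library. The median cell held 41.3% insulin UMIs without treatment, with quartiles of 32.9% and 48.0%. With IL-1β the median was 20.5% and the quartiles 13.2% and 27.1%, clear of the untreated interquartile range. The medians with IFN-γ and with both were 26.9% and 31.2%, and their interquartile ranges, 17.9% to 34.5% and 22.0% to 39.8%, reached into it. Of treated cells, 98.0% under IL-1β, 92.8% under IFN-γ and 78.8% under both lay below the untreated median. In UMIs, the median cell held 7073 insulin UMIs in the untreated library, 1666 under IL-1β, 2860 under IFN-γ and 3624 under both, beside 9440, 5922, 7291 and 7420 UMIs of all genes outside the 7 hormones.

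Because insulin is so abundant, its share depends on the total it is divided by and on depth. Divided by the UMIs outside the hormones, the ratios were 0.376, 0.524 and 0.668. Within each library the insulin share also went with the UMI count of a β-like cell, with Spearman rho of 0.67, 0.39, 0.53 and 0.59 across cells that share 1 library, while against the UMIs outside the hormones rho was 0.17, 0.08, 0.10 and 0.09. In β-like cells of 8000 to 12000 UMIs (101, 478, 560 and 448 cells) the insulin share was 30.6%, 23.9%, 24.6% and 27.1%, a ratio of 0.780, 0.806 and 0.887. That window limits a total that contains insulin itself. In cells of 6000 to 9000 UMIs outside the hormones (341, 453, 757 and 730 cells) the ratios were 0.560, 0.700 and 0.841. With each cell thinned to 4000 UMIs the ratios were 0.518, 0.650 and 0.776. The ratio was below 1 in each of 15 alternatives for every treated library, but its size ranged from 0.376 to 0.780 under IL-1β, from 0.524 to 0.806 under IFN-γ and from 0.668 to 0.887 under both.

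**Figure D2:**
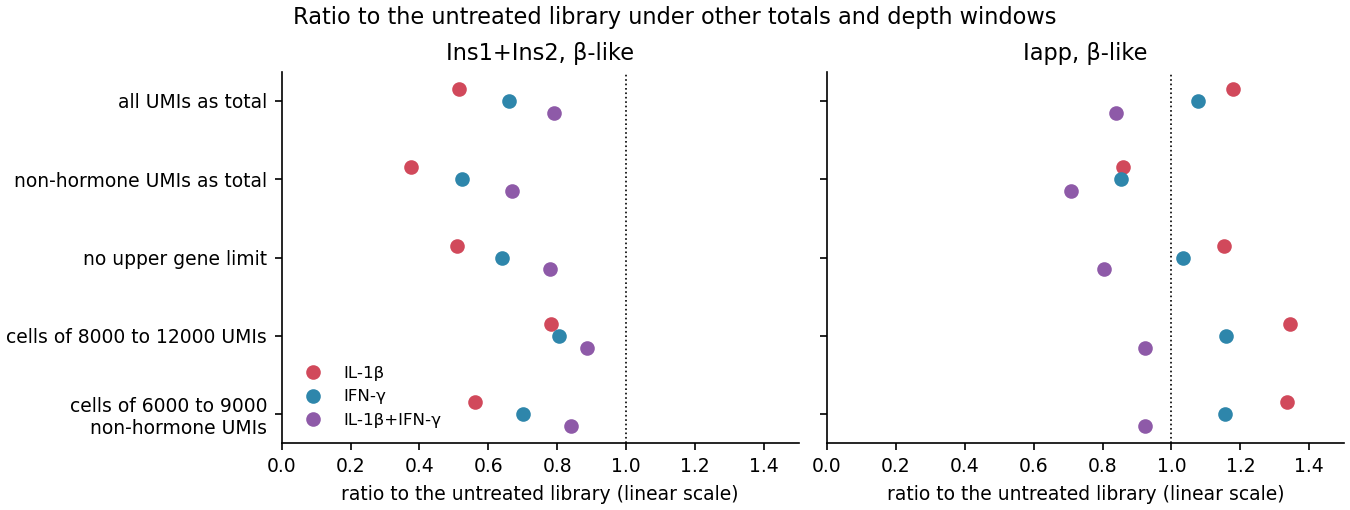
Ratio of the hormone share in β-like cells to the untreated library (linear scale), for Ins1 and Ins2 together and for Iapp, under 5 choices of total or cells. Every insulin point lies left of the dotted line at 1, from 0.376 to 0.887, whereas the Iapp points of IL-1β and IFN-γ cross it when hormones are left out of the total.

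Iapp, which is stored and released with insulin, made up 5.29% of β-like UMIs in the untreated library, 6.23% under IL-1β, 5.69% under IFN-γ and 4.44% under both. The ratios were 1.18, 1.08 and 0.839 when all UMIs were the total, and 0.859, 0.853 and 0.709 when hormones were left out of it, so it was lower with both cytokines on either total, while the direction with IL-1β and with IFN-γ depended on the total. In both depth windows the IL-1β library again had the highest Iapp share, 6.50% against 4.84% untreated in cells of 8000 to 12000 UMIs and 6.46% against 4.84% in cells of 6000 to 9000 UMIs outside the hormones. Per 100 insulin UMIs β-like cells held 12.5 Iapp UMIs in the untreated library, 28.7 under IL-1β, 20.4 under IFN-γ and 13.3 under both.

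The number of Ins1 UMIs per Ins2 UMI was lowest with both cytokines. β-like cells held 0.424 Ins1 UMIs per Ins2 UMI in the untreated library (0.423 to 0.425), 0.385 under IL-1β (0.384 to 0.386), 0.425 under IFN-γ (0.424 to 0.426) and 0.337 under both (0.336 to 0.338). Over single cells with at least 50 Ins2 UMIs the medians were 0.417, 0.342, 0.389 and 0.304, and the interquartile range under both cytokines, 0.211 to 0.396, still overlapped the untreated one of 0.342 to 0.488. The ratio also went with depth, since in cells of 8000 to 12000 UMIs it was 0.365, 0.403, 0.410 and 0.304. The library with both cytokines had the lowest ratio in that window too, while the untreated ratio was there below those of IL-1β and IFN-γ. In cells of 6000 to 9000 UMIs outside the hormones the ratios were 0.417, 0.398, 0.436 and 0.342.

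β-like clusters differed among themselves in the same 2 measures. The lowest insulin share of a cluster in each library was 35.3%, 17.7%, 19.4% and 18.1%. In the untreated, IL-1β and IFN-γ libraries that cluster had Atf5 among its 10 leading genes, and with IL-1β and IFN-γ also Trib3. Both genes belong to the integrated stress response. The cluster under both cytokines had neither of them there, but Angptl6 and Chchd10. The highest insulin share belonged to a Slc2a2 and Mafa cluster without treatment (45.4%) and a Trpm5 and Slc2a2 cluster with IFN-γ (31.2%), and to clusters with Il4i1, Acod1 and Nos2 among their 10 leading genes with IL-1β (24.6%) and with both (37.7%). The cluster with the most insulin under IL-1β thus lay below the lowest untreated cluster, whereas under both cytokines it lay within the untreated range. Clusters with the heat-shock gene Hspa1a among their 10 leading genes had Ins1 to Ins2 ratios of 0.347, 0.347, 0.314 and 0.314, and those with the lens protein gene Crybb3 among them 0.453, 0.461, 0.488 and 0.372. The Hspa1a clusters were lowest in the untreated and IFN-γ libraries, while under IL-1β and under both the lowest ratios, 0.306 and 0.237, were in the clusters with the least insulin. With IFN-γ the cluster with the least insulin was nearly level with the Hspa1a cluster, at 0.3150 against 0.3143. Clusters were drawn from the same cells, so these values are descriptions.

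**Figure D3:**
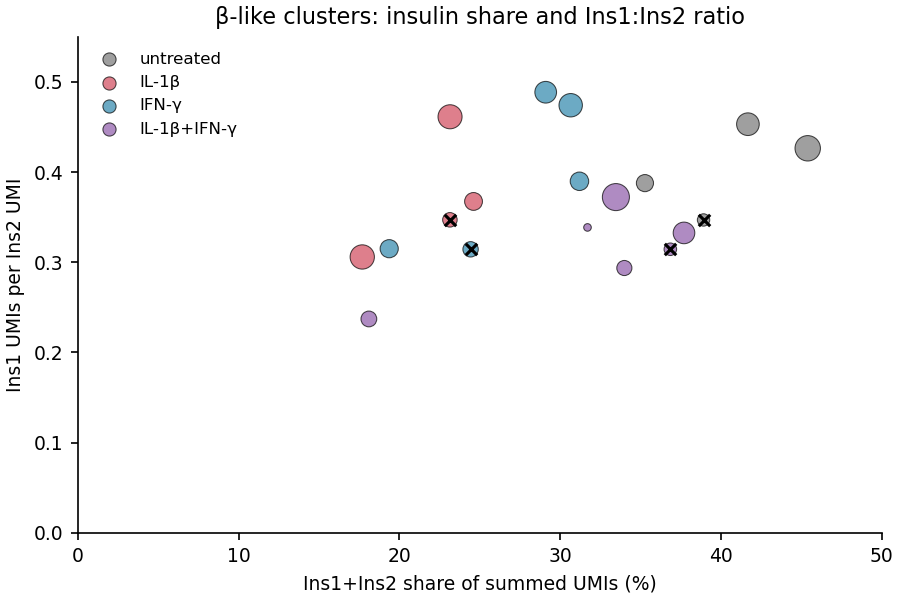
Each of the 19 β-like clusters by its share of summed UMIs in Ins1 and Ins2 (%) and its Ins1 UMIs per Ins2 UMI. Color gives the library, point area the number of cells, and crosses mark the clusters with Hspa1a among the 10 leading genes. The crossed points lie between 0.314 and 0.347, and the lowest insulin share of each library is 17.7% to 35.3%.

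β-like cells with a UMI of Nos2, the inducible nitric oxide synthase, held slightly more insulin than those without in both libraries with IL-1β. With IL-1β alone the share was 23.1% in 325 cells with a Nos2 UMI and 21.1% in 849 without, and with both cytokines 33.9% in 908 cells and 31.7% in 400. The cells with Nos2 were deeper, at medians of 9236 against 7721 and 12671 against 10092 UMIs. With IFN-γ 9 cells had a Nos2 UMI, and they held 18.7% insulin against 27.9% in 1323 without.

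Against all genes, the insulin values were read with the general shift of the β-like transcriptome in view. Genes with at least 50 summed UMIs were called when their share differed by at least 1.5-fold from untreated in either direction, which was so for 47.3% of 10886 genes under IL-1β, 24% of 11095 under IFN-γ and 41% of 11030 under both. By the same rule 10.6%, 1.82% and 20.1% were lower. Ins1 and Ins2 were among the lower genes with IL-1β, at ratios of 0.481 and 0.530, and with IFN-γ, at 0.662 and 0.660, just past the limit. With both cytokines no hormone was, Ins1 lying just outside at 0.669 and Ins2 at 0.842. The calls in the higher direction took in 36.8%, 22.2% and 20.9% of all genes and 3 of the 7 hormones in each treated library, namely Ppy and Pyy in each, with Sst under IL-1β and under both, and Gcg under IFN-γ. These made up at most 0.111% of β-like UMIs, and 2 of them under IL-1β lay below the summed non-endocrine level of that library, Sst at 0.0141% against 0.0288% and Pyy at 0.0434% against 0.0481%. Within that level, 33 endothelial-like cells held 0.133% Sst and 0.146% Pyy, and 18 ductal-like cells 0.0160% and 0.123%. The macrophage-, mesenchymal- and acinar-like clusters held 0.00094% to 0.00214% Sst and 0.00234% to 0.00421% Pyy, below the β-like levels. Gcg under IFN-γ went from 0.0651% to 0.0466% without the Scrublet doublets, beside 0.0420% in the untreated library with its doublets kept. The median β-like cell held 0.0100% Ppy in the untreated library and 0%, 0.0106% and 0.00456% in the treated ones, and 76.6%, 47.1% and 74.5% of treated cells lay below the untreated median. For Pyy 78.3%, 46.1% and 76.1% did, and its median was 0.00434% untreated and 0.00661% under IFN-γ. With the hormones left out of the total, Ppy (1.19) and Pyy (1.48) under IL-1β, Gcg under IFN-γ (1.23) and Sst under both (1.37) fell short of the limit, while Ins1 under both passed it (0.565). The median log2 ratio of all genes was 0.37, 0.33 and 0.03, and leaving the hormones out of the total lowers each value by 0.46, 0.34 and 0.24.

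Of 10 regulators of the insulin genes, 4 were lower and 4 higher with IL-1β, 0 lower and 1 higher under IFN-γ, and 6 lower and 1 higher under both. Of all genes on the same total, 10.6%, 1.82% and 20.1% were lower and 36.8%, 22.2% and 20.9% higher. The median log2 ratio of the list was 0.24, 0.23 and -0.78. Mafa, a β-cell activator of insulin transcription, stood at 639 CPM in the untreated library, 72.3 CPM under IL-1β, 452 CPM under IFN-γ and 51.9 CPM under both, ratios of 0.113, 0.707 and 0.0812. Mafa was thus lowest in the libraries with IL-1β, and any relation of its level to the insulin share was not tested. Pdx1, which binds the insulin promoter, had ratios of 0.347, 0.744 and 0.232. Nkx2-2, needed for β-cell identity, had ratios of 0.424, 1.05 and 0.230, and Nkx6-1 0.577, 0.891 and 0.430. In the other direction, Neurod1 had ratios of 2.35, 1.49 and 1.18, Isl1 1.64, 1.24 and 0.841, and Insm1 1.61, 1.62 and 1.28. Glis3, an activator of insulin transcription, had ratios of 2.01, 1.11 and 1.59 and was the gene called higher under both. With the hormones left out of the total 1 regulator stayed higher, Neurod1 under IL-1β (1.72), and the lower calls were 4, 2 and 6, the 2 under IFN-γ being Pdx1 (0.589) and Mafa (0.560). On that total 15.3%, 6.71% and 13.9% of all genes were higher and 23.8%, 6.66% and 29.7% lower. Pax6 stood at 0.573 and Foxa2 at 0.592 with both cytokines, and neither passed 1.5-fold with IL-1β. Mafa, Pdx1 and Nkx6-1 also served as β markers, so the class was chosen in part on them.

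Of 12 genes for prohormone processing and granules, 3 were lower and 3 higher with IL-1β, 0 lower and 2 higher under IFN-γ, and 2 lower and 1 higher under both, where 10.6%, 1.82% and 20.1% of all genes were lower and 36.8%, 22.2% and 20.9% higher. The median log2 ratio of this list was 0.04, -0.03 and -0.12. Slc30a8, the zinc transporter of insulin granules, had ratios of 0.563, 0.969 and 0.425, and Sytl4, a granule docking protein, 0.563, 0.932 and 0.396. Pcsk1n, an inhibitor of prohormone convertase 1, had ratios of 0.621, 0.814 and 0.931. The granule protein Chgb had ratios of 2.36, 1.88 and 1.57, the amidating enzyme Pam 2.45, 1.88 and 1.18, and carboxypeptidase E (Cpe) 2.09, 1.43 and 1.35. The convertases Pcsk1 and Pcsk2 stayed within 0.862 to 1.16 of untreated. With the hormones left out of the total the higher calls of this list were 3, 0 and 0 and the lower calls 4, 1 and 4, beside the shares of all genes on that total given above.

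In α-like cells, Gcg made up 17.1%, 16.7%, 14.9% and 15.7% of UMIs, with medians over cells of 19.4%, 16.9%, 14.0% and 15.96%, and the interquartile ranges of all 4 libraries overlapped. Of treated cells, 66.6%, 78.2% and 72.4% lay below the untreated median. The ratios to untreated were 0.973, 0.869 and 0.917, and all 3 were above 1 (1.11, 1.06 and 1.05) when cells of up to 20% mitochondrial UMIs were kept. The IFN-γ class included a shallow cluster of 63 cells (median 2047 UMIs) with 9.67% Gcg. The other α-like clusters of that library held 11.9% to 17.8%, and the weight of the shallow cluster in the IFN-γ values was not tested. The untreated α-like class held 15 of 89 cells with at least as many Ppy as Gcg UMIs, against 12 of 305, 43 of 326 and 8 of 174 cells. Without those cells Gcg stood at 20.9%, 17.2%, 15.9% and 16.5%, a ratio of 0.825, 0.761 and 0.789, so the ratio depended on which cells the class held. Over 14 alternatives the lowest Gcg ratios were 0.699, 0.717 and 0.747.

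Summed Ppy in α-like cells was 6.28% without treatment and 1.61%, 1.39% and 1.98% in the treated libraries, and without the cells with at least as much Ppy as Gcg it was 0.497%, 0.589%, 0.337% and 0.543%. Leaving out those cells took Pyy from 3.97%, 1.18%, 1.88% and 1.84% to 1.58%, 1.07%, 1.26% and 1.43%. The median α-like cell held 0.884%, 0.620%, 0.494% and 0.772% Pyy. Iapp in α-like cells stood at 0.227%, 0.608%, 0.329% and 0.455%, beside 0.115%, 0.154%, 0.0820% and 0.205% in non-endocrine cells. The medians over cells were 0.114%, 0.303%, 0.125% and 0.214% in α-like and 0.0753%, 0.0364%, 0.0433% and 0.0123% in non-endocrine cells. For α-like cells the IL-1β value was the highest in both measures, and its ratio to untreated, 2.68, ranged from 1.07 to 6.74 over 14 alternatives. Of 10 granule genes tested in these cells, 2, 0 and 1 were lower and 0 higher, with median ratios of 0.956, 0.951 and 0.969. Among them Slc30a8 had ratios of 0.233, 0.890 and 0.299 to untreated, where 14.9%, 4.37% and 19.8% of all genes were at least 1.5-fold lower. Calls in either direction took in 34.4%, 20.4% and 39.5% of genes in α-like cells, and higher calls 19.5%, 16% and 19.7%.

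**Figure D4:**
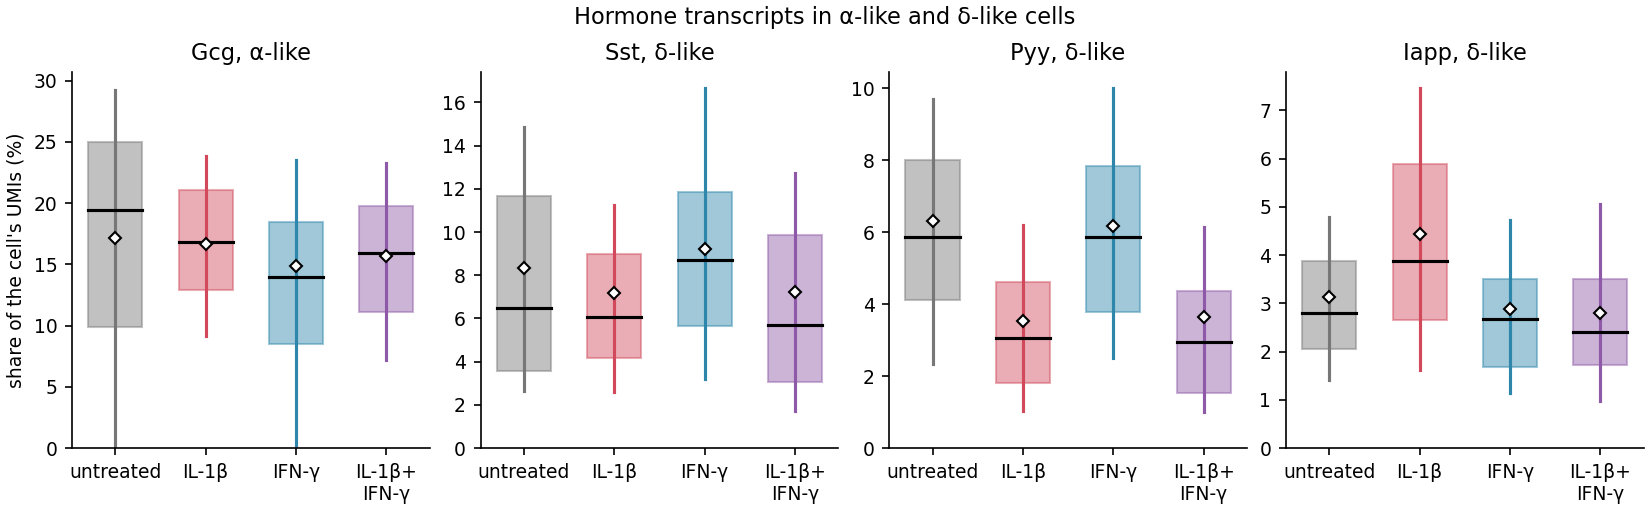
Share of each cell's UMIs (%) taken by Gcg in α-like cells and by Sst, Pyy and Iapp in δ-like cells, in the 4 libraries. Boxes span the quartiles over cells, vertical lines the 10th to 90th percentile, black bars the median and white diamonds the share of summed UMIs. Pyy medians are near 5.86% without treatment and with IFN-γ, and near 3% in both libraries with IL-1β.

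δ-like cells carried 4 hormone transcripts, and Pyy among them was lower in both libraries with IL-1β. Sst made up 8.35%, 7.17%, 9.23% and 7.24% of UMIs, with medians over cells of 6.47%, 6.05%, 8.69% and 5.72% and overlapping interquartile ranges. Its ratios to untreated were 0.860, 1.11 and 0.867. Pyy, at 6.32%, 3.53%, 6.17% and 3.64%, gave ratios of 0.559, 0.977 and 0.577. The median δ-like cell held 5.86%, 3.06%, 5.86% and 2.95% Pyy, and the untreated interquartile range, 4.12% to 8.01%, overlapped that of IL-1β, 1.82% to 4.63%, only at its edge. Over 13 alternatives the Pyy ratio stayed between 0.534 and 0.593 under IL-1β, between 0.947 and 1.02 under IFN-γ, and between 0.525 and 0.614 under both. It was below the 1.5-fold limit in the 2 libraries with IL-1β, where 15.7% and 24% of tested genes were, and not with IFN-γ, where 8.79% were. Calls in either direction took in 35.4%, 17.8% and 46% of genes, and higher calls 19.7%, 8.99% and 22%.

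Iapp in δ-like cells was highest with IL-1β alone. It made up 3.13%, 4.44%, 2.89% and 2.79%, with medians over cells of 2.81%, 3.87%, 2.68% and 2.41%. The ratio with IL-1β, 1.42, stayed between 1.35 and 1.52 over 13 alternatives, and those with IFN-γ and with both were 0.923 and 0.892. As a share of all UMIs, Iapp was thus highest in the IL-1β library in β-like, α-like and δ-like cells, but with hormones left out of the total the untreated library was highest in β-like cells. Ppy made up 2.77%, 2.10%, 2.85% and 2.91% of δ-like UMIs. Of the regulators tested in δ-like cells (6, 8 and 6), 2, 0 and 4 were lower and 0, 1 and 0 higher. Of the 10 granule genes tested there, 1, 0 and 0 were lower and 2, 1 and 1 higher. Both lists stand beside the shares of all δ-like genes given above. The regulator Isl1, a factor of endocrine cell identity, had ratios of 0.499, 0.724 and 0.253, and the granule protein Chgb 1.63, 1.68 and 1.67.

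Cells led by Ppy were described by that hormone itself, because the markers named a PP-like cluster in 1 library by the settings used here. Where Ppy was the leading hormone (38, 46, 83 and 66 cells) the median cell held 26.6%, 18.0%, 23.8% and 30.4% Ppy, which the choice of cells fixes in part. Pyy, which the choice did not use directly, made up 11.4%, 4.42%, 8.93% and 6.34% of summed UMIs there, again lowest in the 2 libraries with IL-1β. The PP-like cluster named in the combined library held 33.6% Ppy and 6.36% Pyy.

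Hormone transcripts also appeared in cells that do not make them. Non-endocrine cells held insulin at 1.03%, 0.648%, 0.355% and 1.48% of their summed UMIs, at median depths of 6631, 4822, 7810 and 8435 UMIs. A few cells carried much of it. Cells with over 1% insulin numbered 35, 4, 12 and 5, and the medians over cells were 0.578%, 0.0976%, 0.236% and 0.105%. With both cytokines 14 acinar-like cells held 11.9% insulin, and without them the non-endocrine share was 0.154%. With IL-1β the 33 endothelial-like cells held 2.86% in sum and 0.112% at the median. Nearly every cell had an insulin UMI, namely 100%, 99.3%, 100% and 100% of non-endocrine cells, so detection of insulin does not mark a cell as making it.

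The median insulin share of α-like cells lay close to the non-endocrine median in every library, at 0.514%, 0.0891%, 0.218% and 0.103%. In δ-like cells the medians were 0.533%, 0.110%, 0.206% and 0.130%. Summed insulin in α-like cells was 0.565%, 0.268%, 0.902% and 0.151%, below the non-endocrine sum except with IFN-γ, where 1 shallow α-like cluster of 63 cells (median 2047 UMIs) held 5.60% insulin. Summed insulin in δ-like cells was 0.853%, 0.220%, 0.379% and 0.161%, also above the non-endocrine sum only with IFN-γ. The δ-like medians lay above the non-endocrine ones under IL-1β and under both. Levels at or below the non-endocrine level were read as background. The α-like and δ-like sums with IFN-γ lay above it, as did the δ-like medians just named, and the source of that insulin was not tested. Insulin in β-like cells was 40.9, 33.5, 78.6 and 22.5 times the summed non-endocrine level, or 71.4, 210, 114 and 298 times from cell median to cell median, which changes the order of the libraries. Without the acinar-like cells the fold of the combined library was 216. Gcg in α-like cells was 1364, 129, 1165 and 2787 times its summed non-endocrine level. Under IL-1β that level was carried by 18 ductal-like cells with 0.812% Gcg, while the other non-endocrine clusters held 0.0118% to 0.0146%. Sst in β-like cells, at 0.00435%, 0.0141%, 0.00529% and 0.00705%, was below the summed non-endocrine level of 0.00674% and 0.0288% in the untreated and IL-1β libraries. Under IL-1β that level was carried mostly by the 33 endothelial-like cells with 0.133% Sst. The macrophage-, mesenchymal- and acinar-like clusters of that library held 0.00094% to 0.00214%, below the β-like level. The Ins1 to Ins2 ratio of the non-endocrine cells, 0.414, 0.326, 0.386 and 0.265, was below that of β-like cells in each library and had the same order from library to library, apart from the untreated and IFN-γ libraries. In the untreated library its counting interval, 0.396 to 0.433, took in the β-like ratio of 0.424.

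**Figure D5:**
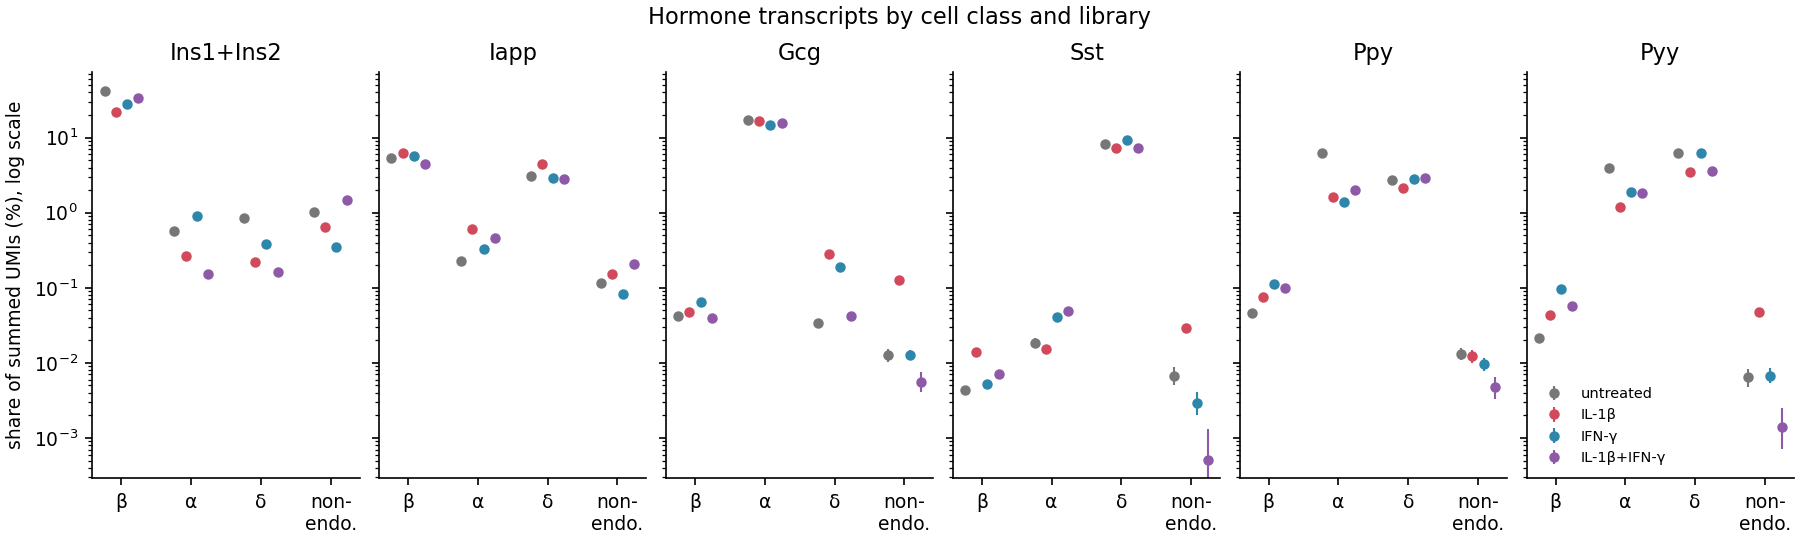
Share of summed UMIs (%, log scale) of each hormone in β-like, α-like, δ-like and non-endocrine cells of the 4 libraries. Bars are exact 95% Poisson intervals, mostly narrower than the points. Insulin stands at 21.7% to 42.2% in β-like cells and at most 1.48% elsewhere, and Pyy is highest in δ-like cells.

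Genes most like each hormone were taken from 24 pairs of library and class over 11029 genes, by Pearson correlation of log2(CPM + 1). The pairs share libraries and classes, so differences between classes enter the values and no test was made. Ins1 was closest to Ins2 (r = 0.997), then to Ucn3, Trpm5, Car10 and Cox6a2 (0.913 to 0.889), of which Ucn3 and Trpm5 were naming markers. Iapp had other neighbours, Scnn1b, Sez6l, Tspan5, Pcsk6 and Galr3 (0.960 to 0.917). Gcg was closest to Gm20554, Vwde, Irx2, Irx1 and Nxph1 (0.967 to 0.922), of which Irx1 and Irx2 are transcription factors of α-cells and were naming markers. Sst was closest to Gpm6a, Dpp6, Ptn, Ly6h and Fstl5 (0.942 to 0.898). Ppy and Pyy were each among the nearest of the other (r = 0.959), beside Folr1 and Calb1 for Ppy and the fatty acid receptor gene Ffar4 and Rbp4 for Pyy, both markers used for δ-like cells.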

How the data were processed

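Whole-transcriptome droplet libraries of 4 islet cultures were analysed from the deposited matrices of UMI counts per gene and cell barcode, 1 library per condition. Per the labels and file headers the authors made these counts with Cell Ranger against mm10 (matrix software version 3.0.0). The labels give the 3′ kit in one version and the study's methods in another. Depth per library opens the report. The hormone genes and the other gene lists were chosen with earlier results of these data known.

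Cells with 200 to 4000 genes and up to 12% mitochondrial UMIs entered. Cells of each library were clustered without the hormones, over 2000 variable genes, 30 components and 20 neighbours, by Louvain at a resolution of 0.8, then 2 within mixed clusters (scanpy 1.11.5, igraph 0.11.9, Python 3.11.15). A cluster took the class with the highest marker score if that led the next by 1.5 times (1.25 where PP was second) with at least 3 markers seen in 10% of cells. This scheme was the last of 6 tried with the hormone shares of clusters in view. Doublets were left in, and Scrublet was an alternative.

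Summed UMIs of a gene were divided by all UMIs of the class. Intervals are exact at 95% (SciPy 1.17.1) and cover counting error only. No test between conditions was made, since a condition is 1 library. A gene was called at 1.5-fold with at least 50 summed UMIs. Named genes were all members, the regulator and granule lists, and the 5 genes correlating best with each hormone. The fold and interval functions were tested on simulated data. Alternatives covered the cell filters, class naming, total, thinning and depth.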

Additional observations from a re-analysis of the deposited data

Results flagged for a closer look

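The ratios of Iapp and Ppy to untreated lay on different sides of 1 in different endocrine classes by the settings used here. With IFN-γ the ratio of Iapp to untreated was 1.166 times as large in β-like as in δ-like cells and 1.572 times as large in α-like as in δ-like cells, being above 1 in the former and below 1 in δ-like cells. With both cytokines the Iapp ratio of α-like cells was 2.387 times that of β-like and 2.245 times that of δ-like cells. For Ppy the δ-like ratio was 4.656 times the α-like one with IFN-γ and 3.336 times with both. The sides of 1 were not stable. With the hormones left out of the total Iapp with IFN-γ was at 0.853 in β-like and 0.926 in δ-like cells. With up to 20% mitochondrial UMIs Iapp in α-like cells was at 0.502 with IFN-γ and 0.808 with both. Without the α-like cells holding at least as much Ppy as Gcg, α-like Ppy was 0.497% untreated, 0.337% under IFN-γ and 0.543% under both, the last lying above untreated as in δ-like cells. Ppy in δ-like cells fell below 1 in 4 of 13 alternatives with IFN-γ and in 6 of 13 with both. These differences were not tested, as each class came from 1 library per condition. Only hormones at 0.2% or more of a class were compared, a limit set after the values had been seen. 

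In cells left out of the comparisons, some hormones stood at more than 1.5 times the level of the untreated library's own left-out cells, and the values that follow are those alone. Others did not, such as Iapp in cells over 4000 genes, which was lower in every treated library (3.12%, 3.27% and 2.69% against 4.83%), and insulin, which was lower in both groups. Among cells with over 12% mitochondrial UMIs, Gcg made up 1.357% of UMIs with IFN-γ and 1.337% with both, Sst 0.4225% with IFN-γ, and Iapp 3.962% with IL-1β and 3.512% with IFN-γ. Among cells with over 4000 genes, Gcg made up 2.018% under IL-1β, 2.518% under IFN-γ and 2.051% under both, and Sst 0.7743% with IL-1β and 1.123% with IFN-γ. These groups mix cell types. Cells led by insulin made up 87.4% of the untreated cells over 4000 genes against 48.6%, 52.8% and 71.2% in the treated libraries (IL-1β, IFN-γ, both), and 61.0% of the untreated cells over the mitochondrial limit against 59.6%, 53.6% and 39.5%. Kept cells of all types held 0.911% Gcg in the untreated library and 3.02%, 2.02% and 1.47% in the treated ones. The part of cell makeup in these values was not tested.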

How the results depend on the processing

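The limits are that a condition is 1 library, that depth and class makeup differ between libraries, and that the scheme of class names, the pooled clusters, the other leads in marker score, both depth windows and the α-like subset were chosen after seeing the data. No paired analysis was possible because each condition has 1 library with no replicate number and no test was made. Of the alternative values, 47 of the main ratios and gene counts stayed within their counting interval (for a count, within 1.5 times) and 94 moved beyond it, while of the other values 363 stayed, 676 moved and 38 turned direction. Counting intervals are narrow at these depths. The causes were not tested. The insulin ratio to untreated in β-like cells is given below in the order IL-1β, IFN-γ, both, and the Ins1 to Ins2 ratio, where it moved, in the order untreated, IL-1β, IFN-γ, both.

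Without the upper limit on genes the insulin ratio was 0.509 (IL-1β), 0.640 (IFN-γ) and 0.780 (both) and the Ins1 to Ins2 ratio was 0.383 (IL-1β), 0.419 (IFN-γ) and 0.332 (both). Here the ratio crossed 1 for Gcg in α-like cells at 1.002 (IFN-γ) and 1.09 (both), Sst in δ-like cells at 1.01 (IL-1β), Ppy in δ-like cells at 0.603 (IFN-γ) and 0.972 (both). With up to 20% mitochondrial UMIs the insulin ratio was 0.507 (IL-1β), 0.641 (IFN-γ) and 0.785 (both) and the Ins1 to Ins2 ratio was 0.422 (untreated), 0.382 (IL-1β), 0.422 (IFN-γ) and 0.336 (both). Crossing 1 were Gcg in α-like cells at 1.11 (IL-1β), 1.06 (IFN-γ) and 1.05 (both), Iapp in α-like cells at 0.502 (IFN-γ) and 0.808 (both). With classes taken from the leading hormone the insulin ratio was 0.506 (IL-1β), 0.669 (IFN-γ) and 0.786 (both) and the Ins1 to Ins2 ratio was 0.422 (untreated) and 0.336 (both). On the other side of 1 were Pyy in α-like cells at 1.04 (IFN-γ) and 1.06 (both), Ppy in δ-like cells at 0.862 (IFN-γ) and 0.853 (both). With hormones kept in the clustering the insulin ratio was 0.513 (IL-1β), 0.658 (IFN-γ) and 0.787 (both). Ratios that crossed 1 were those of Pyy in α-like cells at 1.58 (IFN-γ) and 1.39 (both), Ppy in δ-like cells at 0.905 (both). At a clustering resolution of 1.6 the insulin ratio was 0.503 (IL-1β), 0.658 (IFN-γ) and 0.795 (both). Here the ratios on the other side of 1 were those of Pyy in α-like cells at 1.13 (IFN-γ). Without the Scrublet doublets the insulin ratio was 0.662 (IFN-γ) and 0.792 (both). With UMIs outside the hormones as total the insulin ratio was 0.376 (IL-1β), 0.524 (IFN-γ) and 0.668 (both). Here the ratio crossed 1 for Iapp in β-like cells at 0.859 (IL-1β) and 0.853 (IFN-γ), Ppy in δ-like cells at 0.992 (both). As means over cells the insulin ratio was 0.521 (IL-1β), 0.657 (IFN-γ) and 0.775 (both) and the Ins1 to Ins2 ratio was 0.419 (untreated), 0.375 (IL-1β), 0.414 (IFN-γ) and 0.325 (both). Crossing 1 were Ppy in δ-like cells at 0.937 (both). With the non-endocrine share subtracted the insulin ratio was 0.512 (IL-1β), 0.669 (IFN-γ) and 0.774 (both) and the Ins1 to Ins2 ratio was 0.387 (IL-1β) and 0.340 (both). The remaining share, in percent of UMIs, was then below 0 in some classes that do not make the hormone: insulin in α-like cells at -0.468 (untreated), -0.380 (IL-1β) and -1.33 (both), insulin in δ-like cells at -0.179 (untreated), -0.428 (IL-1β) and -1.32 (both), Sst in β-like cells at -0.00239 (untreated) and -0.0147 (IL-1β), Gcg in β-like cells at -0.0812 (IL-1β), Pyy in β-like cells at -0.00461 (IL-1β). With cells thinned to 4000 UMIs the insulin ratio was 0.518 (IL-1β), 0.650 (IFN-γ) and 0.776 (both) and the Ins1 to Ins2 ratio was 0.419 (untreated), 0.378 (IL-1β), 0.417 (IFN-γ) and 0.328 (both). On the other side of 1 were Ppy in δ-like cells at 0.992 (both). With clusters made over the 4 libraries together the insulin ratio was 0.513 (IL-1β), 0.669 (IFN-γ) and 0.798 (both) and the Ins1 to Ins2 ratio was 0.423 (untreated) and 0.383 (IL-1β). Ratios that crossed 1 were those of Pyy in α-like cells at 1.07 (IFN-γ) and 1.30 (both), Ppy in δ-like cells at 0.970 (IFN-γ). With a lead of 1.5 throughout the ratio crossed 1 for Pyy in δ-like cells at 1.02 (IFN-γ), Ppy in δ-like cells at 0.962 (IFN-γ). With the smaller lead throughout the insulin ratio was 0.501 (IL-1β) and 0.656 (IFN-γ) and the Ins1 to Ins2 ratio was 0.384 (IL-1β). In cells of 8000 to 12000 UMIs the insulin ratio was 0.780 (IL-1β), 0.806 (IFN-γ) and 0.887 (both) and the Ins1 to Ins2 ratio was 0.365 (untreated), 0.403 (IL-1β), 0.410 (IFN-γ) and 0.304 (both). In cells of 6000 to 9000 UMIs outside the hormones the insulin ratio was 0.560 (IL-1β), 0.700 (IFN-γ) and 0.841 (both) and the Ins1 to Ins2 ratio was 0.417 (untreated), 0.398 (IL-1β), 0.436 (IFN-γ) and 0.342 (both).

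The number of genes past the fold limit moved with the fold and with the filter on low counts. In β-like cells under IL-1β it went from 5152 to 2357 at a fold of 2 and 10328 with 1 summed UMI enough. In β-like cells under IFN-γ it went from 2660 to 634 at a fold of 2, 7213 with 1 summed UMI enough and 1483 with UMIs outside the hormones as total. In β-like cells under both it went from 4519 to 2373 at a fold of 2 and 9706 with 1 summed UMI enough. In α-like cells under IL-1β it went from 2237 to 932 at a fold of 2, 7815 with 1 summed UMI enough and 1416 after thinning. In α-like cells under IFN-γ it went from 1434 to 398 at a fold of 2 and 6809 with 1 summed UMI enough. In α-like cells under both it went from 2269 to 1066 at a fold of 2, 8513 with 1 summed UMI enough and 1101 after thinning. In δ-like cells under IL-1β it went from 1544 to 632 at a fold of 2, 7540 with 1 summed UMI enough and 894 after thinning. In δ-like cells under IFN-γ it went from 969 to 265 at a fold of 2, 6576 with 1 summed UMI enough and 591 after thinning. In δ-like cells under both it went from 1907 to 1034 at a fold of 2, 8776 with 1 summed UMI enough and 1015 after thinning.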

Other observations

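Cells removed by the filters also carried insulin, over all cell types together. In the 843, 146, 345 and 222 cells removed only for having over 4000 genes (untreated, IL-1β, IFN-γ, both; median 27749, 17636, 20019 and 20087 UMIs) insulin made up 34.6%, 6.81%, 11.8% and 16.03% of UMIs, against 36.9%, 14.8%, 20.1% and 26.7% in all kept cells. In the 695, 319, 463 and 248 cells removed only for over 12% mitochondrial UMIs it made up 25.9%, 12.5%, 15.01% and 12.5%. The untreated library had the highest insulin share in both removed groups, as among the kept cells.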
